A study of Mus musculus with 6 samples.

Results

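The SOCS family comprises *Socs1* to *Socs7* and *Cish*, a set of genes for proteins that brake cytokine and growth factor signalling. All members were picked by gene name, and the 8 genes were found among the 56748 genes of the deposited table. All 8 passed the filter on low counts. Bulk RNA sequencing was performed on primary osteocytes from the long bones of mice, with 3 libraries per genotype. The WT libraries came from C57BL/6J mice. The cKO libraries came from *Gsdmd* fl/fl; DMP1-Cre mice, in which floxed alleles of the pyroptosis gene *Gsdmd* are cut by a Cre recombinase driven by the promoter of *Dmp1*, a gene of osteocytes and late osteoblasts. Osteocytes were isolated at 7 weeks of age per the study's methods and cultured for 7 days, with age- and sex-matched animals. Neither the age nor the sex of each genotype is given separately. All cultures of both genotypes were primed for 3 h with LPS (10 ng/mL) and then exposed for another 3 h to aluminum hydroxide (20 µg/mL), a particulate that activates the inflammasome. No unstimulated library was analysed here, so each value compares genotypes under stimulation. The labels do not say that the libraries came from separate animals or cultures, and the p-values measure only the spread between these libraries, which may be technical.

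Cytokine receptors of the JAK-STAT type carry no kinase of their own. Binding of a ligand activates the Janus kinases (JAKs) bound to the receptor, which phosphorylate STAT transcription factors, and STATs then switch on genes that include the SOCS genes themselves. The induced SOCS proteins bind phosphorylated receptors or kinases through an SH2 domain and recruit a ubiquitin ligase through the SOCS box, which closes a negative feedback loop. SOCS1 and SOCS3 can also block JAK catalytic activity directly, SOCS3 is the main brake on gp130, the shared receptor of the IL-6 family, and CIS (from *Cish*) and SOCS2 act mainly on receptors that signal through STAT5. In bone, IL-6 family cytokines act through gp130 on osteoblasts, osteocytes and osteoclast precursors.

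The libraries held 39566835 to 49734046 counts. *Gsdmd*, the targeted gene, was checked first. It was measured with 609, 699 and 549 counts in WT and with 885, 937 and 1045 counts in cKO, and was higher in the libraries labelled cKO (log2 fold change 0.69, adjusted p = 2.27e-06 by edgeR's quasi-likelihood test, with the adjustment of Benjamini and Hochberg here and throughout). This goes against the label, although the count pools all exons of the gene and not only the floxed ones, and every direction below is between libraries labelled WT and libraries labelled cKO. The culture was checked against marker lists. Of 10 osteocyte markers 4 were abundant enough to test, and 3 of these fell in cKO and 0 rose. The summed level of the list was 257 to 271 CPM in WT and 212 to 220 CPM in cKO (counts scaled to a library of 1000000). Most of this sum was *Pdpn*, with means of 234 CPM in WT and 193 CPM in cKO. *Sost* and *Dkk1* were at 0 in all libraries, *Dmp1* reached at most 6 counts and *Mepe* at most 2. *Phex* had 22, 4 and 4 counts in WT and 16, 2 and 6 counts in cKO. *Fgf23* had 14, 34 and 8 counts in WT and 6, 0 and 0 counts in cKO. The mature osteocyte markers *Sost* and *Dmp1* were thus absent or nearly so. All 16 macrophage markers rose in cKO, with a summed level of 1215 to 1373 CPM in WT and 6499 to 6821 CPM in cKO, and none of them was at 0. Of the T cell markers, *Cd3d*, *Cd3e*, *Cd3g* and *Cd8a* were at 0. *Cd2* had 2, 0 and 4 counts in WT and 5, 22 and 14 counts in cKO. *Cd4* had 0, 2 and 0 counts in WT and 12, 0 and 0 counts in cKO, and neither gene was abundant enough to test. Neutrophil markers summed to 4.59 to 7.86 CPM in WT and 10.1 to 11.2 CPM in cKO. Of the other marker lists, 3 of 8 stromal genes rose and 3 fell, 2 of 6 osteoblast genes rose and 3 fell, 2 of 6 osteoclast genes rose and 2 fell, 3 of 5 chondrocyte genes rose and 2 fell, and 1 of 5 endothelial genes rose and 4 fell, while no B cell gene was abundant enough to test. The part of the macrophage transcripts in the results below was not tested, and in bulk RNA a change in the number of cells of a type and a change in RNA per cell cannot be told apart.

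Because SOCS genes are themselves STAT targets, the sequence around their annotated start was read from the GRCm39 genome. The palindrome TTCNNNGAA, the letters that STAT dimers typically bind, was searched within 1000 bases on each side of the start of the main GENCODE M39 transcript, and it reads the same on both strands. At least 1 match was found in 45.2% of 21770 protein-coding genes, at least 2 in 13.1%, at least 3 in 2.81% and at least 5 in 0.0827%. *Cish* held 5 matches, *Socs2* held 3, *Socs3* held 2, *Socs1*, *Socs4* and *Socs7* held 1 each, and *Socs5* and *Socs6* held 0. The stretches below show how the matches sit in the 4 members that cytokines classically induce, with the matches in capitals. The first *Cish* stretch (chr9:107172715-107172744, plus strand) lies 500 bases before the start, and the other two are in an exon of the main transcript (chr9:107173853-107173882 and chr9:107173961-107173990). The *Socs2* stretch (chr10:95252761-95252790, minus strand) is in an exon of the main transcript and has 2 matches separated by the same 2 bases as the second *Cish* stretch. The remaining *Socs2* match begins 834 bases before the start, in an exon of another transcript, and its stretch is not shown.
Cish, upstream: cctacccataTTCCAAGAAactggcttctt
Cish, first exonic pair: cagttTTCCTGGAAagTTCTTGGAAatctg
Cish, second exonic pair: ggTTCTAGGAAgatgaggcTTCCGGGAAgg
Socs2, exonic pair: gcggaTTCCTGGAAagTTCCTGGAAagcgg
Socs3, upstream: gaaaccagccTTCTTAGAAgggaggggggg
Socs3, exonic: ggccgggcagTTCCAGGAAtcggggggcgg
Socs1, exonic: gctagccgggTTCCAAGAAgggtcgagatt

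The *Socs3* stretches (minus strand) begin their match 223 bases before the start, in an exon of another transcript (chr11:117860327-117860356), and 50 bases after it, in an exon of the main transcript (chr11:117860054-117860083). The *Socs1* match (chr16:10603834-10603863, minus strand) lies in an exon 22 bases after the start. That start, at 10603875, lies outside the interval deposited for the counted gene (10600104 to 10603400). The annotated starts of the other members, apart from *Cish*, also differed between GENCODE M39 and the deposited intervals. The longer palindrome with 4 central bases in place of 3, which STAT6 prefers, was found 3 times in *Socs1* and 2 times in *Cish*. *Socs5* and *Socs6* held it 1 time each. At least 1 match was found in 40.1% of genes, at least 2 in 9.79% and at least 3 in 1.72%. Matches of the 2 patterns were counted separately, overlaps included. A match describes letters in the genome, and binding was not measured here.

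Under stimulation, *Socs3* led the family in both genotypes in level per length. On the scale of CPM per kilobase of deposited gene length, *Socs3* was measured at 36.4, 37.1 and 38.0 in WT and at 49.0, 51.4 and 49.7 in cKO. *Socs5* came next at 18.2 to 18.9 in WT and 12.3 to 13.3 in cKO, and *Socs4* followed at 8.75 ± 0.509 and 9.19 ± 0.199 (SD, n = 3). In WT, *Socs7* (4.31 to 4.74) and *Socs6* (4.43 to 4.59) were not separated, and neither were *Socs1* and *Cish*, nor *Cish* and *Socs2*, which all lay between 1.17 and 2.15. In cKO no neighbours in the order overlapped, and on this scale *Socs2* had moved from the last place to the sixth, above *Socs1* and *Cish*. The order depended on the division by length. In CPM, *Socs5* stood above *Socs3* in WT (means of 119 and 107). *Socs2* stood above *Cish* and *Socs1* in both genotypes (11.6, 9.52 and 5.19 CPM in WT, 21.4, 7.13 and 4.56 CPM in cKO). The summed level of the family was 78.0 ± 0.994 CPM per kilobase in WT and 86.2 ± 1.40 in cKO (SD, n = 3). Within that sum, *Socs3* took 47.6% ± 0.985 in WT and 58.1% ± 0.800 in cKO, whereas the share of *Socs5* was 23.7% ± 0.609 and 15.0% ± 0.480. Deposited gene lengths ran from 2891 bases in *Socs3* to 11349 bases in *Socs6*, and a member expressed from a transcript shorter than its deposited length is understated on this scale.

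**Figure D1:**
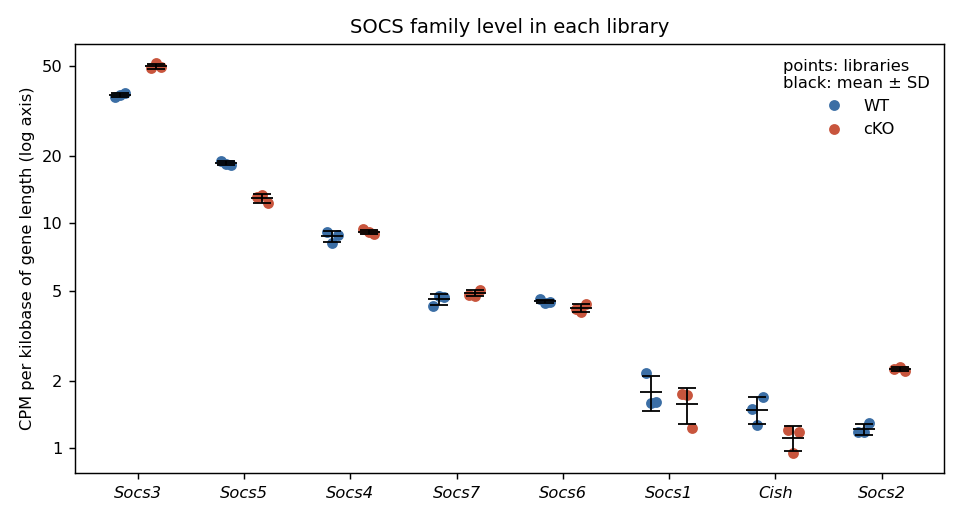
Level of each SOCS family gene in CPM per kilobase of deposited gene length (log axis), with each library as a point (WT blue, cKO red) and the mean ± SD in black (n = 3 per genotype). *Socs3* stands highest in all libraries, *Socs2* and *Socs3* sit higher in cKO and *Socs5* and *Cish* lower.

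Between genotypes, the family did not move in a single direction. *Socs2* and *Socs3* rose in cKO, *Socs5* and *Cish* fell, and *Socs1*, *Socs4*, *Socs6* and *Socs7* did not pass the test. Thus 4 of 8 members were called (adjusted p below 0.05, edgeR's quasi-likelihood test), against 39.3% of all 17146 tested genes. In each direction the family had 2 calls, and the background was 20.1% higher and 19.2% lower. The median log2 fold change of the members was -0.013, and that of all tested genes was 0.0077. The libraries of the genotypes did not overlap for 6 of 8 members, while 49.2% of all tested genes showed no overlap. The cKO libraries lay above for *Socs2*, *Socs3* and *Socs7* and below for *Socs5*, *Socs6* and *Cish*, that is 3 members each way, beside 25.3% of all tested genes above and 23.9% below. No member reached a log2 fold change of 1, which 11.2% of the tested genes did together with an adjusted p below 0.05. With only 8 members, nothing is read from the number of calls or from the number without overlap.

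**Figure D2:**
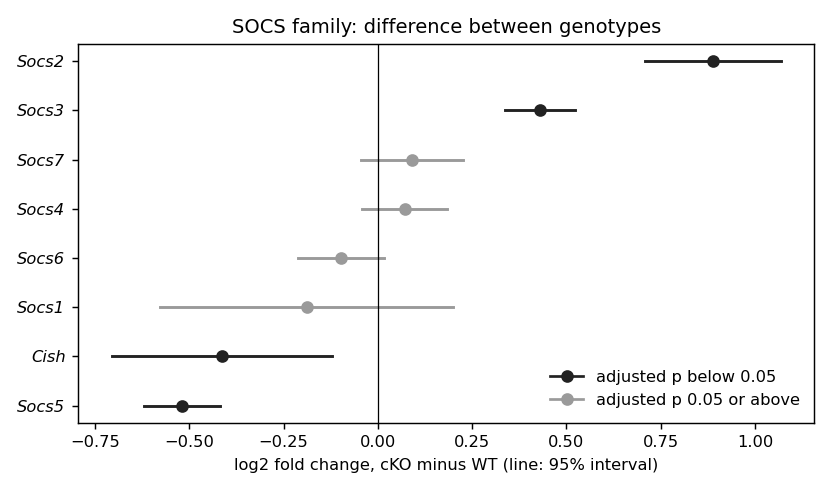
Log2 fold change of each SOCS family gene, cKO minus WT (points), with its 95% interval (lines) from the edgeR fit over 17146 genes and 6 libraries. *Socs2* (0.89) and *Socs3* (0.43) lie above 0 and *Socs5* (-0.52) and *Cish* (-0.41) below it, and the intervals of the other 4 genes, in grey, include 0.

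Among the members induced by cytokines, *Socs2* (ENSMUSG00000020027) showed the largest difference. SOCS2 limits signalling from the growth hormone receptor, and loss of the gene is known to cause overgrowth in mice. It was measured at 11.2, 11.3 and 12.3 CPM in WT and at 21.5, 21.9 and 20.9 CPM in cKO. Every cKO library lay above every WT library, with little spread inside either genotype. The level was 1.85-fold higher in cKO (log2 fold change 0.89, SE 0.09, 95% interval 0.71 to 1.07, adjusted p = 1.56e-07 by edgeR's quasi-likelihood test). The gene lies on chromosome 10 (95221224 to 95253042, GRCm39), and its paired matches, printed above, begin 187 bases after the annotated start.

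*Socs3* (ENSMUSG00000053113, chromosome 11, 117856905 to 117860873), the feedback brake on IL-6 and related cytokines, rose by a smaller step. It was measured at 105, 107 and 110 CPM in WT and at 142, 149 and 144 CPM in cKO. The genotypes did not overlap, and the gap between them was wider than the range inside either. The level was 1.35-fold higher in cKO (log2 fold change 0.43, SE 0.04, 95% interval 0.34 to 0.52, adjusted p = 3.37e-07 by edgeR's quasi-likelihood test).

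*Cish* (ENSMUSG00000032578, chromosome 9, 107173225 to 107179983), whose product CIS binds STAT5-activating receptors, moved the other way. It was measured at 9.58, 8.16 and 10.8 CPM in WT and at 7.72, 6.09 and 7.57 CPM in cKO, from only 242 to 431 counts a library. The cKO libraries all lay below the WT libraries, though the lowest WT library was close to the highest cKO library. The difference was 1.33-fold (log2 fold change -0.41, SE 0.14, 95% interval -0.71 to -0.12, adjusted p = 0.0248 by edgeR's quasi-likelihood test). The call depended on single libraries. With edgeR's quasi-likelihood test, the adjusted p was 0.0517 without WT replicate 1, 0.0900 without WT replicate 3 and 0.120 without cKO replicate 2, where the log2 fold changes were -0.42, -0.32 and -0.31. Antisense genes *Gm17041* and *Gm17040* overlap *Cish* and held 3% and 1.71% as many counts, and the strand setting of the counting is not given in the sources used here.

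*Cish* and *Socs2* held the most matches to TTCNNNGAA near the start, and they went in opposite directions. The ratio of *Cish* to *Socs2* counts was 0.855, 0.725 and 0.879 in WT and 0.360, 0.278 and 0.362 in cKO. The ratio was thus lower in each cKO library than in any WT library, as a description of 2 members that were both called.

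*Socs1* (ENSMUSG00000038037, chromosome 16, 10600104 to 10603400), the brake on interferon signalling, did not pass the test. It was measured at 6.27, 4.61 and 4.69 CPM in WT and at 5.09, 5.00 and 3.59 CPM in cKO. The genotypes overlapped. From 163 to 282 counts per library, the 95% interval of the log2 fold change ran from -0.58 to 0.20 (adjusted p = 0.459 by edgeR's quasi-likelihood test).

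Among the remaining members, which are best known for acting on receptor tyrosine kinases and insulin signalling, *Socs5* (ENSMUSG00000037104, chromosome 17, 87415107 to 87445267) had the smallest p-value of the family. SOCS5 can promote degradation of the EGF receptor. It was measured at 121, 118 and 117 CPM in WT and at 84.3, 85.5 and 78.7 CPM in cKO. All cKO libraries lay far below all WT libraries. The level fell by 0.52 on the log2 scale, 1.43-fold (SE 0.05, 95% interval -0.62 to -0.42, adjusted p = 8.88e-08 by edgeR's quasi-likelihood test). The ratio of *Socs3* to *Socs5* counts, the 2 members most abundant per length, was 0.866 to 0.943 in WT and 1.68 to 1.82 in cKO.

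*Socs4* (ENSMUSG00000048379, chromosome 14, 47514388 to 47533559), the closest relative of *Socs5*, showed no such fall. It was measured at 63.2, 56.3 and 61.1 CPM in WT and at 64.6, 63.1 and 61.9 CPM in cKO, and the genotypes overlapped. The 95% interval of its log2 fold change was -0.04 to 0.18 (adjusted p = 0.331 by edgeR's quasi-likelihood test), which does not overlap that of *Socs5*.

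*Socs6* and *Socs7*, which bind insulin receptor substrates, differed little. *Socs6* (ENSMUSG00000056153, chromosome 18, 88683348 to 88945605) was measured at 52.1, 50.3 and 50.8 CPM in WT and at 47.2, 45.9 and 49.9 CPM in cKO. *Socs7* (ENSMUSG00000038485, chromosome 11, 97253261 to 97289368) was measured at 31.8, 35.0 and 34.8 CPM in WT and at 35.6, 35.3 and 37.4 CPM in cKO. The cKO libraries of *Socs6* all lay below and those of *Socs7* all lay above the WT libraries, by narrow margins. Neither passed edgeR's quasi-likelihood test, with log2 fold changes of -0.10 (95% interval -0.21 to 0.02, adjusted p = 0.172) and 0.09 (95% interval -0.04 to 0.22, adjusted p = 0.293). Under upper quartile scaling *Socs6* passed, at -0.17 (adjusted p = 0.0188 by edgeR's quasi-likelihood test), and that scaling moved the share of higher genes among all calls from 51.2% to 39.5%.

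*Socs3* was next set beside IL-6, the cytokine whose receptor it restrains. *Il6* was measured at 237, 234 and 280 CPM in WT and at 609, 547 and 614 CPM in cKO. It rose 2.36-fold (log2 fold change 1.24, adjusted p = 1.86e-11 by edgeR's quasi-likelihood test), a larger step than that of *Socs3*. The ratio of *Socs3* to *Il6* counts was 0.443, 0.458 and 0.392 in WT and 0.233, 0.272 and 0.234 in cKO. Each cKO library held fewer *Socs3* counts per *Il6* count than any WT library, a difference of -0.81 on the log2 scale (two-sided exact permutation test, p = 0.1, the smallest that 3 against 3 libraries can give). With *Il6st*, the gene of gp130, in place of *Il6* the direction was the opposite. The ratio of *Socs3* to *Il6st* counts was 0.0838, 0.0841 and 0.0917 in WT and 0.102, 0.105 and 0.102 in cKO, a difference of 0.25 (exact permutation test, p = 0.1). These are ratios of counts within a library, which need no scaling between libraries, and their size is not a ratio of levels per length.

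**Figure D3:**
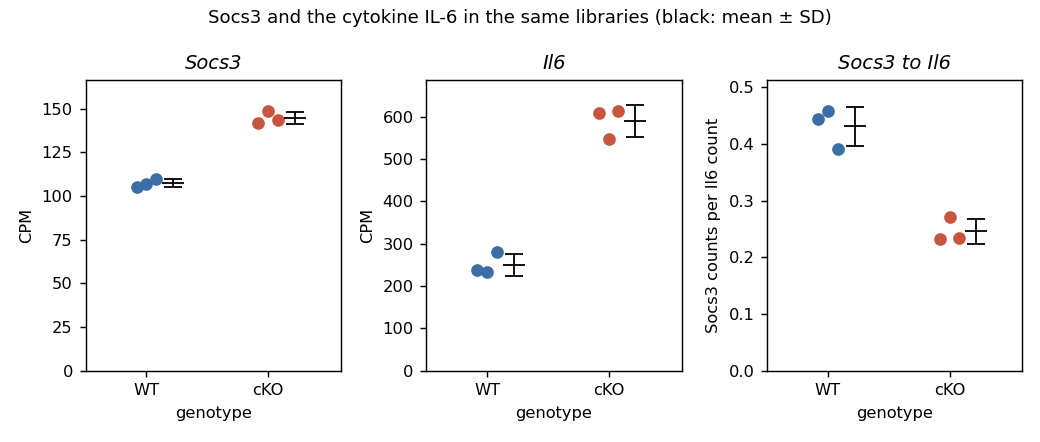
*Socs3* and *Il6* in CPM and the ratio of their counts in each library (points, WT blue and cKO red) with the mean ± SD beside them (black, n = 3 per genotype). Both genes are higher in all cKO libraries, and the ratio is 0.392 to 0.458 in WT and 0.233 to 0.272 in cKO.

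The rest of the JAK-STAT pathway was described from lists of cytokines, receptors, kinases and STATs, and other brakes, which together held 72 tested genes. Of these, 35 rose and 11 fell (63.9% called), with a median log2 fold change of 0.19, beside 39.3% and 0.0077 for all tested genes. The macrophage markers given above moved in the same comparison, and *Ptprc* is on both lists.

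Of 36 listed cytokines, 13 were abundant enough to test. *Il6*, *Osm* and *Ebi3* rose, and *Tslp* and *Csf2* fell (38.5% called, beside 39.3% of all tested genes). Oncostatin M (*Osm*), an IL-6 family member, went from 4.04 to 12.5 CPM (log2 fold change 1.64), and *Ebi3*, a subunit of IL-27 and IL-35, from 1.52 to 6.58 CPM (2.10). *Tslp*, a cytokine of epithelial and stromal cells, fell by 1.64 on the log2 scale. *Csf2*, which encodes GM-CSF, fell by 3.53 from a mean of only 0.764 CPM. The interferon genes *Ifng* and *Ifnb1* were at 0 in all libraries and were not tested.

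Among 33 tested receptor genes, 17 rose and 5 fell (66.7% called, beside 39.3% of all tested genes). The higher genes with the smallest p-values were *Il7r* (13.7 to 72.8 CPM, log2 fold change 2.41), *Csf2rb2* (1.89) and *Csf2ra* (1.83), receptor chains of blood cells for IL-7, IL-3 and GM-CSF. *Csf2rb2* has a close copy in *Csf2rb*, so reads may be split between them. Lower genes included *Cntfr* (-2.92), *Il13ra2* (-0.31) and *Ghr*, the growth hormone receptor that SOCS2 acts on. *Ghr* went from 96.7 ± 2.05 to 80.9 ± 1.83 CPM (SD, n = 3; log2 fold change -0.26, adjusted p = 0.000208 by edgeR's quasi-likelihood test). *Il6st* rose slightly, from 1242 ± 39.2 to 1407 ± 14.9 CPM (0.18, adjusted p = 0.000299 by the same test).

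Of the 11 kinases and STATs, 5 rose and 2 fell (63.6% called, beside 39.3% of all tested genes). Both of the lower genes were kinases, *Jak1* at 468 ± 5.17 CPM in WT and 358 ± 0.782 in cKO (log2 fold change -0.39) and *Jak2* at 91.3 ± 3.95 and 64.2 ± 1.09 (-0.51, SD, n = 3). Both transduce gp130 signals, and *Jak2* also serves the growth hormone receptor. *Tyk2* (0.32) and *Stat5b* (0.30) were among the genes that rose. *Stat3*, the main STAT of gp130, was measured at 319 ± 24.6 and 311 ± 0.630 CPM, and *Stat5a* at 37.4 ± 1.64 and 39.1 ± 0.870 CPM (SD, n = 3), and neither passed the test (adjusted p = 0.609 and 0.426 by edgeR's quasi-likelihood test). The sign of *Stat3* turned without WT replicate 3, and that of *Stat5a* under upper quartile scaling.

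Other brakes on the pathway mostly rose, with 10 of 15 higher and 2 lower. The leading genes were the phosphatases of blood cells, *Ptpn6* (SHP-1), which went from 3.34 to 31.0 CPM (log2 fold change 3.23), and *Ptprc* (CD45), which went from 13.3 to 104 CPM (2.97). The ubiquitin ligase *Cbl* followed at 0.33. *Ptpn11*, which encodes SHP-2 and binds the same gp130 site as SOCS3, fell by 0.31, and *Pias2*, a STAT-binding SUMO ligase, fell by 0.17, a call lost without cKO replicate 2 (adjusted p = 0.135 by edgeR's quasi-likelihood test).

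SOCS proteins act through elongins, a cullin and a RING protein, and the genes of these partners were read as well. Of 9 tested genes 3 were called (33.3%, beside 39.3% of all tested genes), with *Rbx1* higher (log2 fold change 0.21) and *Arih2* and *Cul5* lower (-0.56 and -0.20). The elongin genes *Elob* and *Eloc* were not called (0.012 and -0.071), nor was *Rnf7*, another gene for a RING protein (0.11). *Cul5* is the cullin that SOCS box proteins recruit, and *Arih2* is a ligase that works with it. The call of *Cul5* was lost without cKO replicate 1 (adjusted p = 0.0643 by edgeR's quasi-likelihood test). Among 17 tested genes for other proteins with a SOCS box, 35.3% were called. *Spsb2* rose (0.66), 5 genes fell, among them *Wsb2* (-0.26), *Spsb1* (-0.23) and *Asb16* (-0.80), and 11 did not pass.

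**Figure D4:**
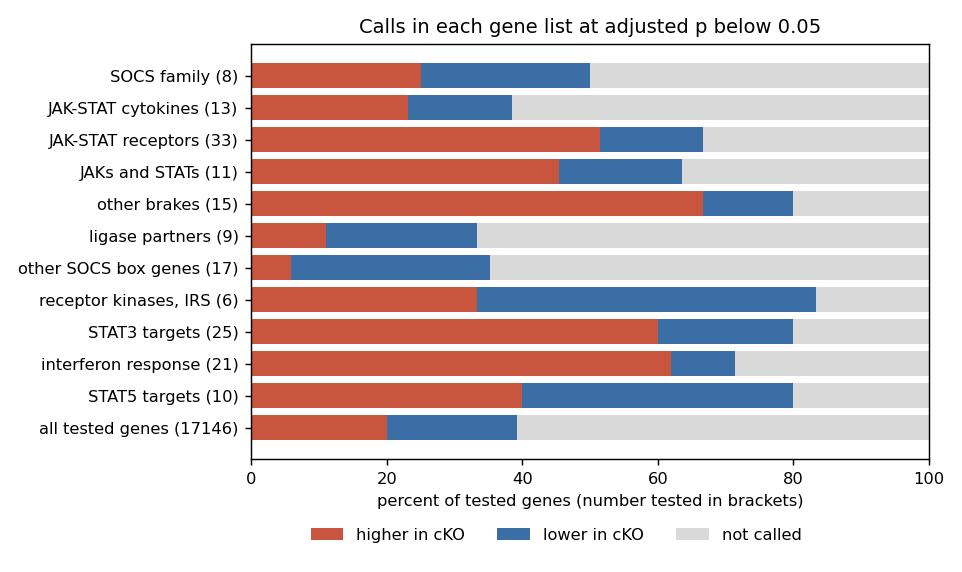
Share of the tested genes of each list that were higher (red), lower (blue) or not called (grey) in cKO at an adjusted p below 0.05, with the number tested in brackets. The SOCS family has 50% called, the other brakes 80% and all tested genes 39.3%.

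The receptor tyrosine kinases and insulin receptor substrates that SOCS proteins can bind were also read. Of 6 tested genes, 2 rose and 3 fell (83.3% called, beside 39.3% of all tested genes). *Irs2* went from 14.5 to 30.3 CPM (log2 fold change 1.06) and *Met*, the receptor of hepatocyte growth factor, from 17.7 to 34.7 CPM (0.97). *Irs1*, *Insr* and *Igf1r* fell by 0.50, 0.23 and 0.16 on the log2 scale. The 2 main insulin receptor substrates thus went in opposite directions.

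Genes known as STAT targets were counted next. Of 53 tested, 32 rose and 9 fell (77.4% called), with a median log2 fold change of 0.46. Among STAT3 targets 15 of 25 rose and 5 fell. The leading higher genes were *Il1rn*, the IL-1 receptor antagonist (67.3 to 330.3 CPM, log2 fold change 2.30), *Fos* (2.29) and *Mcl1*, a survival gene (1.07). The lower genes included *Vegfa*, *Ccnd1* and *Myc*, at -0.48, -0.50 and -0.52. *Bcl3* and *Pim1*, which like *Socs3* are direct STAT3 targets, did not pass, at 0.022 and 0.17 (adjusted p = 0.817 and 0.119 by edgeR's quasi-likelihood test). The sign of *Bcl3* turned under upper quartile scaling and without WT replicate 2 or cKO replicate 2, and *Pim1* passed without WT replicate 1 (0.29, adjusted p = 0.00177) or with no filter on low counts (0.17, adjusted p = 0.0105).

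Among 21 interferon response genes on the target lists, 13 rose and 2 fell. *Irf8*, a transcription factor of macrophages and their precursors, went from 3.48 to 23.0 CPM (log2 fold change 2.72), and *Psmb8* (1.94) and *Gbp5* (1.49) followed. *Irf1*, an interferon-induced transcription factor, was measured at 46.5, 37.4 and 29.8 CPM in WT and at 28.6, 29.5 and 27.7 CPM in cKO, and fell by 0.41 on the log2 scale (adjusted p = 0.00636 by edgeR's quasi-likelihood test). Without WT replicate 1, the highest library, the log2 fold change was -0.25 (adjusted p = 0.0392 by the same test). The chemokine gene *Cxcl10* fell by 1.25 from 1.88 CPM, and that call was lost without WT replicate 3 or cKO replicate 1 (adjusted p = 0.0586 and 0.0566 by the same test).

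STAT5 targets were split, with 4 of 10 higher and 4 lower, as were *Socs2* and *Cish*. *Igf1*, the growth factor induced by growth hormone, was measured at 75.0, 80.0 and 71.1 CPM in WT and at 149, 162 and 160 CPM in cKO (log2 fold change 1.06, adjusted p = 2.07e-11 by edgeR's quasi-likelihood test). *Tnfsf11*, which encodes the osteoclast factor RANKL, rose by 1.39, and *Osm* is on this list as well. *Pim2*, *Ccnd1* and *Bcl2l1* fell by 1.11, 0.50 and 0.31 on the log2 scale. The lists share genes, and *Ccnd1*, *Bcl2l1* and *Pim1* are on the STAT3 target list as well. Some target genes, among them *Osm* and *Il6st*, are also counted among the pathway genes above. The part of the macrophage transcripts in the counts of all target lists was not tested.

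The genes whose levels ran most nearly in parallel with those of the leading members were found by Pearson's r of log2(CPM + 1) over the 6 libraries. For *Socs3*, the member with the highest level per length, these were *Slc17a5*, *Ly9* and *Kcnn4* (r from 0.9996 to 0.9997), and 475 of 17138 genes had r above 0.99. For *Socs5* they were *Hes1*, *Hmga1* and *Gpc6* (r from 0.9986 to 0.9991), and 139 genes had r above 0.99. The libraries share the split by genotype, so any gene with a tight difference between genotypes scores high, and the values are given as a description.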

How the data were processed

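RNA was sequenced in 6 libraries (2 × 150 bp) made with a directional kit. Per the sample records, the authors trimmed the reads, aligned them with HISAT2 2.0.5 to GRCm39 and counted them on genes with featureCounts 1.55.0-p3. The methods name another featureCounts release and also RSEM, and the strand setting is not given in the sources used here. The deposited values are raw counts per gene with a gene length in bases, not normalized. Every column of counts matched a library by name. Of genes with 1 to 10 counts, 63.4% to 65.7% had even counts per library, as when both mates of a pair are counted, so halved counts were tried.

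The fit used R 4.3.3 and edgeR 4.0.16 (filterByExpr, TMM, glmQLFit, glmQLFTest, genotype only), with Benjamini-Hochberg adjustment of the p-values over 17146 genes. A gene was called at an adjusted p below 0.05, the limit of the study's methods. CPM were counts divided by the TMM-scaled count on tested genes. The script was tested on simulated data. Totals of 39566835 to 49734046 counts limit genes with few counts most, and intervals cover the spread between libraries. Replicates of a genotype differed beyond counting noise (chi-square per gene 4.88 to 13.95), so none was a copy. Same-numbered libraries did not deviate together (r from -0.018 to -0.00098).

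The members and the 20 other gene lists were chosen with earlier results of these data known. Genes named were all members, *Gsdmd*, up to 3 higher and 3 lower genes of each list by smallest p, the genes *Il6*, *Il6st*, *Jak1*, *Jak2*, *Stat3*, *Stat5a*, *Stat5b*, *Ptpn6*, *Irf1*, *Bcl3*, *Pim1*, *Igf1* and *Ghr*, and the 3 genes most alike to 2 members. A further gene under this rule is not reported here. Markers, untested genes, genes that share a locus and the ligase partners *Elob*, *Eloc* and *Rnf7* were named besides. The alternatives tried were limma-voom (limma 3.58.1), DESeq2 1.42.0, the exact test of edgeR, other scalings, filters and limits, halved counts, a replicate block, and each library left out in turn.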

Additional observations from a re-analysis of the deposited data

How the results depend on the processing

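Directions of the 8 members held under every alternative tried, with log2 fold changes of 0.82 to 0.93 for *Socs2*, 0.36 to 0.45 for *Socs3*, -0.59 to -0.48 for *Socs5* and -0.52 to -0.31 for *Cish*. With a log2 fold limit of 1, 0 members were higher and 0 lower, 13 pathway genes were higher and 3 lower, and 14 STAT targets were higher and 2 lower, since the limit removes smaller differences. At an adjusted p below 0.01, 1 member was lower, *Cish* being lost. With each library left out, *Socs2* and *Socs3* were higher each time (2 members) and 1 to 2 members were lower, with *Cish* lost without WT replicate 1, WT replicate 3 or cKO replicate 2, and the *Socs3* to *Il6* log2 difference ran from -0.88 to -0.76. It was 0.25 with *Il6st* as the denominator. The signs of 3 named genes that were not called turned, *Stat3* without WT replicate 3 (-0.094 to 0.022 over the libraries left out), *Stat5a* to -0.0027 under upper quartile scaling, and *Bcl3* to -0.047 under that scaling and without WT replicate 2 or cKO replicate 2 (-0.017 to 0.062). The cause was not tested.

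With the replicate block, 2 members were higher and 2 lower, 33 pathway genes were higher and 11 lower, 31 STAT targets were higher and 9 lower, and the *Socs3* to *Il6* difference was -0.81 (exact sign-flip permutation, p = 0.25, the smallest possible). The numbers were taken as not pairing the libraries. Upper quartile scaling added *Socs6* to the lower members, 3 in all. Among the members, *Socs1* and *Cish* had the fewest counts and the widest intervals.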
